A study of Apis cerana with 76 samples.

Results

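The ventriculus is the midgut of the bee, the tube in which food is digested and taken up, and it was sampled in drones (males) and in workers (females that as a rule do not reproduce). The miRNA profile of the drone ventriculus of Apis cerana, the Asian honey bee, was set against that of the worker ventriculus. All bees were wild type, and the labels give no treatment, no age and no number of bees per library. Each side had 2 small RNA libraries, but the authors pooled them into 1 column of counts, so every level below is a pooled value of the authors without replicate error, and the difference between drone and worker ventriculus itself has no replicate check and no p-value. An entry (1 listed miRNA name with its sequence) was taken when it had 10 or more counts in at least 1 of these 2 columns, which kept 99 of 171 entries; 26 entries were at 0 in both columns and 46 more stayed under 10 counts in both. Where a result uses other organs, these are the pooled brain and rectum of wild-type drones and workers, drone testis and mucus gland, worker ovary and venom gland, and queen ovary.

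A miRNA is a short RNA that guides a silencing protein to messenger RNAs, mainly through its seed, bases 2 to 8 counted from the 5′ end; miRNAs with the same seed can share targets. In insect midguts, miRNAs have known roles in digestion, in the renewal of the gut lining by stem cells and in metabolism. In flies miR-305 and miR-8 act in intestinal stem cells or their daughters, and in mosquitoes miR-275 is needed for the digestion of a blood meal.

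The sequences of the entries that the results turn on are shown as the organ sheet lists them, with the seed in capitals. The first set holds entries that were higher in worker ventriculus, the next those higher in drone ventriculus, and the last the abundant entries that mark the ventriculus of both.
miR-2765-5p: uGGUAACUccaccaccguuggc
miR-2788-5p: uGGGGUUUcuaugcggcaugug
miR-263a-3p: cUUGGCACuggaagaauucacaga
miR-263a-5p (shown for comparison): aAUGGCACuggaagaauucacg
miR-279b-3p: uGACUAGAucgaaauacucguc
miR-279a-3p (shown for comparison): uGACUAGAuccacacucauu
miR-989-3p: cGUGAUGUgacguagugguucu
miR-2944-3p: uAUCACAGcaguaguuaccug
miR-7-5p: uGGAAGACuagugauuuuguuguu
miR-9a-5p: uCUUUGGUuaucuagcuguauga
miR-3786-3p and miR-3786-5p: uCUGUAUGgcucaggacgauac
miR-6000-3p and miR-6000b-3p: uAGAGACGaguaguacccacgagu
miR-1175-3p: uGAGAUUCacuccuccaacuuac
miR-2796-3p: gUAGGCCGgcggaaacuacuugc
miR-277-3p: uAAAUGCAcuaucugguacgac
miR-3720-5p: aUACGGUGaugaguuuaaacag
miR-315-5p: uUUUGAUUguugcucagaaagcc
miR-184-3p: uGGACGGAgaacugauaagggc
miR-750-3p: cCAGAUCUaacucuuccagcu
miR-283-5p: aAAUAUCAgcugguaauucugg
miR-12-5p: uGAGUAUUacaucagguacuggu
miR-281-5p: aAGAGAGCuauccaucgacagu
The names miR-3786-3p and miR-3786-5p stand for 1 sequence, and so do miR-6000-3p and miR-6000b-3p.

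The drone ventriculus column held 1785371 miRNA counts and the worker column 2318236. Counts were turned into CPM, which puts the columns on the same total after TMM scaling (a factor per column from the trimmed mean of the log ratios), and 3 counts, taken as the detection floor, stood for 1.96 CPM in the drone and 1.61 CPM in the worker column. Intervals given below are 95% exact binomial intervals of the ratio of the counts of both columns, and these intervals and the floor cover counting error only.

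Drone and worker ventriculus had largely the same profile, with a few entries far apart. An entry was called when the columns were at least 2-fold apart on the scale of log2(CPM + 1) and the higher one had at least 50 CPM. Of the 99 entries 15 were called, or 15.2%: 10 were higher in worker (10.1%) and 5 higher in drone (5.05%). For all 15 the whole counting interval lay past 2-fold, or 1 column was at 0. Not all of these calls are firm. miR-3786-3p and miR-6000b-3p, at 0 in drone, each share a sequence with another name, and the interval of neither summed sequence lay wholly past 2-fold. miR-9a-5p lost its call under the other scalings tried. Of the 76 entries with 50 CPM or more in a column, 48 were within 1.5-fold of each other (63.2%), and the median absolute log2 ratio was 0.45. The median log2 ratio of drone over worker was -0.19 over all 99 entries. Taking each column as shares of its own total, 10.7% of the counts would have to change their entry to turn one profile into the other.

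**Figure D1:**
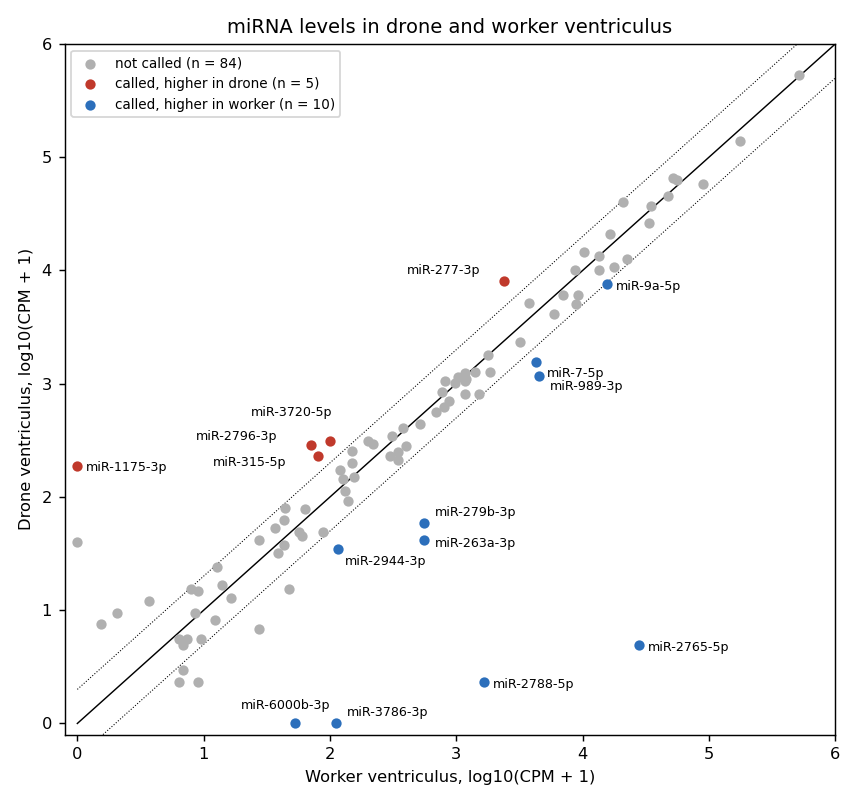
Level of each of the 99 entries in worker ventriculus (x axis) and drone ventriculus (y axis), both as log10(CPM + 1), 1 pooled value per axis. The solid line marks equal levels, the dotted lines 2-fold; the 10 entries higher in worker are blue, the 5 higher in drone red and the other 84 grey, and miR-2765-5p lies farthest from the line.

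The gut list was read across the organ columns, and 2 of the list's 5 entries were highest in the ventriculus. The list was chosen with earlier results of these data known, so this is no independent check of the label ventriculus. miR-750-3p stood at 140427 CPM in drone and 175122 CPM in worker ventriculus, while the other 9 organ columns ran from 250.0 to 4933 CPM, with worker rectum highest. miR-281-5p, known from the midgut of other insects, stood at 6013 CPM in drone and 9269 CPM in worker ventriculus, against 36.7 to 1839 CPM elsewhere. The other 3 entries of the list did not mark the ventriculus: miR-275-3p reached 27465 CPM in drone testis, miR-305-5p 3163 CPM in worker ovary, and miR-1175-3p was at 0 in worker ventriculus. Outside the list, miR-283-5p, whose hairpin is clustered with that of miR-12 in insects, was at 57688 and 89151 CPM, against 797 to 8923 CPM elsewhere. miR-12-5p was at 45337 and 47375 CPM, against 1429 to 34220 CPM elsewhere, and let-7-5p, a regulator of developmental timing, at 62817 and 56074 CPM, against 11766 to 45208 CPM. With miR-750-3p and miR-281-5p, 5 of the 99 entries were higher in both ventriculus columns than in every other column. None of these 5 was called between drone and worker (15.2% over all 99 entries). The choice itself asked for a high level in both columns, so this is not a result about them.

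**Figure D2:**
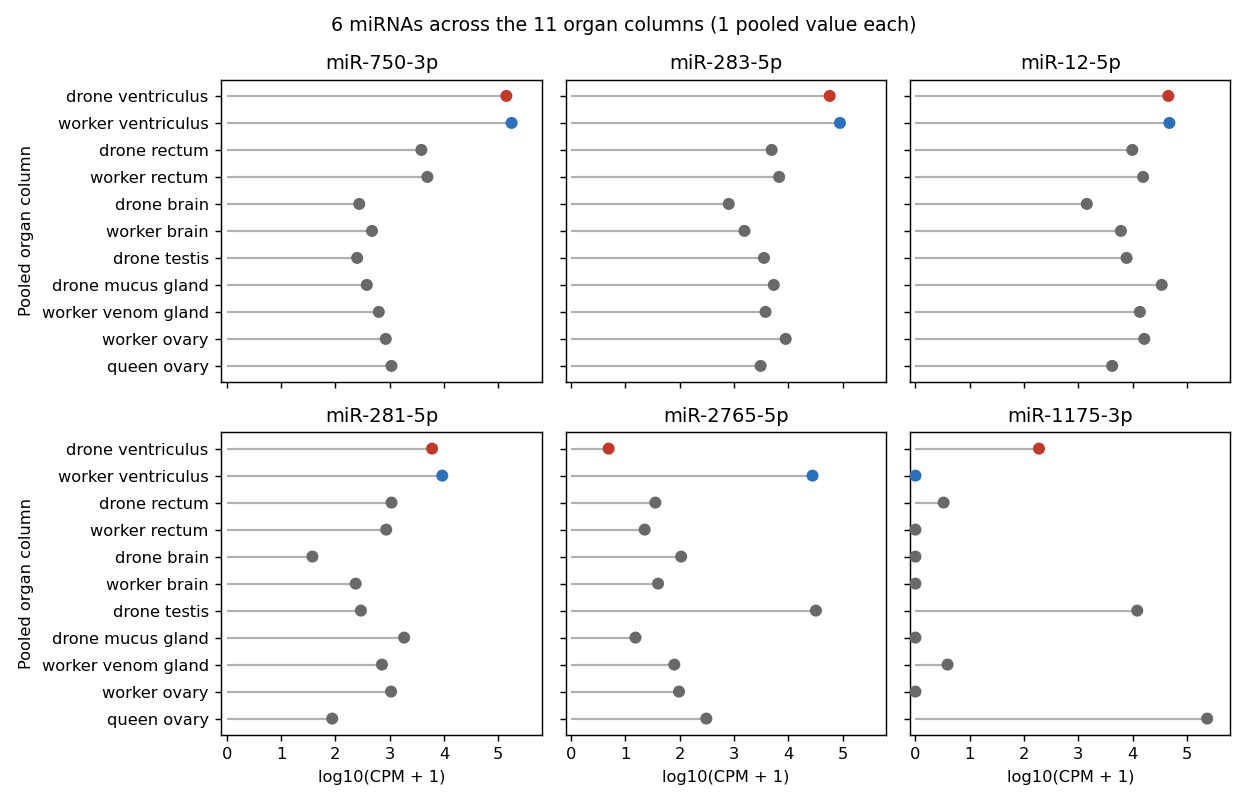
Levels of 6 miRNAs as log10(CPM + 1) (x axis) in the 11 pooled organ columns (y axis), with drone ventriculus in red, worker ventriculus in blue and the other columns in grey. miR-750-3p, miR-283-5p, miR-12-5p and miR-281-5p are highest in the 2 ventriculus columns, miR-2765-5p is high in worker ventriculus and drone testis, and miR-1175-3p is at 0 in worker ventriculus and highest in queen ovary.

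The gut list had 5 entries, of which 1 was called, higher in drone (5.05% over all 99 entries), and its median log2 ratio was 0.04. Apart from miR-1175-3p, none was 2-fold apart: miR-275-3p had a log2 ratio of 0.24 (10186 CPM in drone, 8631 CPM in worker), miR-305-5p of 0.04 (1007 and 979 CPM), miR-750-3p of -0.32 and miR-281-5p of -0.62. Summed over the list, the level was 157820 CPM in drone and 194002 CPM in worker ventriculus.

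The bulk of both profiles was carried by the same few miRNAs. miR-184-3p, a germline and early embryo miRNA in flies, made up 45.3% of the counts in drone and 41.2% in worker ventriculus, with a log2 ratio of 0.04. miR-750-3p followed with 12.05% and 14.1%, and the 10 entries of highest mean share held 87.9% of the drone and 83.5% of the worker counts. Among these 10 the log2 ratios ran from -0.63 for miR-283-5p to 0.95 for miR-14-3p. miR-14-3p, which limits cell death and fat storage in flies, was the abundant entry nearest to the 2-fold limit, with 62002 counts (40472 CPM) in drone and 39064 counts (20962 CPM) in worker. The muscle miRNA miR-1-3p had 5.66% and 4.21% of the counts, and bantam-3p, which promotes growth in flies, 1.81% and 1.33%.

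miR-2765-5p showed the widest gap between drone and worker ventriculus. It had 51898 counts in worker (27849 CPM, 2.24% of the column) and 6 counts in drone (3.92 CPM). The log2 ratio was -12.47 (interval -14.24 to -11.67), and -10.97 when 10 CPM in place of 1 was added to each level. In the other organs it was high in drone testis, at 32117 CPM, and between 14.3 and 307.6 CPM in the remaining 8 columns, so the drone ventriculus held the lowest level of all 11 columns. miR-2788-5p had 3080 counts in worker (1653 CPM) and 2 counts in drone (1.31 CPM), a log2 ratio of -9.49 (interval -13.35 to -8.45), and -7.20 with 10 CPM added. Its next highest columns were drone testis, at 486 CPM, and queen ovary, at 333 CPM. Compared base by base from the 5′ end, the nearest listed entry had 12 mismatches to miR-2765-5p and 11 to miR-2788-5p. No shift was allowed, so a near copy offset by a base would not be seen.

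miR-263a-3p had 62 counts in drone (40.5 CPM) and 1037 counts in worker (556 CPM), a log2 ratio of -3.75 (interval -4.18 to -3.41). The entry miR-263a-5p, of a family that protects sensory bristles of flies from cell death, was not called, with 1068 counts (697 CPM) in drone and 1641 counts (881 CPM) in worker, a log2 ratio of -0.34. Within a column, where scaling between columns plays no part, the log2 ratio of the 3p over the 5p entry was -4.11 in drone (interval -4.50 to -3.74) and -0.66 in worker (interval -0.78 to -0.55), a difference of -3.44. Despite their names, both sequences share a run of 19 bases from position 3 and differ in the seed, so the names mark opposite arms of a hairpin but the sequences are near copies. They were the only pair of differing 5p and 3p entries of 1 name in which both had 10 or more counts in 1 of the columns.

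miR-279b-3p, of a family that shapes sensory neurons and tunes JAK/STAT signalling in flies, had 89 counts in drone (58.1 CPM) and 1035 counts in worker (555.4 CPM), a log2 ratio of -3.23 (interval -3.59 to -2.94). The 4 other entries with its seed were not called and stayed between -0.48 for miR-996-3p and 0.15 for miR-279a-3p, which shares its opening 10 bases. Summed over the 5 entries of this seed, drone had 2729 CPM and worker 3216 CPM.

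miR-989-3p, which acts in the migration of border cells in the fly ovary, had 1799 counts in drone (1174.3 CPM) and 8390 counts in worker (4502 CPM), a log2 ratio of -1.94 (interval -2.01 to -1.87). miR-2944-3p, listed here among ovary and egg miRNAs, had 52 and 213 counts (33.9 and 114 CPM), a log2 ratio of -1.72 (interval -2.22 to -1.31). Both were highest in worker ovary, with 28142 and 103196 CPM. miR-7-5p, a regulator of photoreceptor and sensory organ fate in flies, had 2362 counts in drone (1542 CPM) and 7921 counts in worker (4250 CPM), a log2 ratio of -1.46 (interval -1.53 to -1.40). miR-9a-5p, which secures the number of sensory organ precursors in flies, had 11589 counts (7565 CPM) and 28898 counts (15507 CPM), a log2 ratio of -1.04 (interval -1.07 to -1.004). The call of miR-9a-5p rests on the scaling: its log2 ratio was -0.90 with DESeq2 size factors and -0.94 with column totals.

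The remaining 2 calls on the worker side, miR-3786-3p and miR-6000b-3p, belong to names that share a sequence. miR-3786-3p had 0 counts in drone and 207 in worker, and miR-3786-5p, of the same sequence, 322 and 641. Summed, the sequence had 210 CPM in drone and 455 CPM in worker, a log2 ratio of -1.11 (interval -1.30 to -0.93). miR-6000b-3p had 0 counts in drone and 96 in worker, while miR-6000-3p had 60 in drone and 0 in worker. The call of miR-6000b-3p was lost under 3 of 4 other scalings, where its worker level was 41.0 to 49.8 CPM. Their summed sequence was close in both columns, at 39.2 and 51.5 CPM, a log2 ratio of -0.39 (interval -0.89 to 0.08). Of the 4 entries at 0 in 1 of the columns, 3 thus shared their sequence with another entry: miR-3786-3p, miR-6000b-3p and miR-6000-3p.

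The fourth entry at 0 in a column was miR-1175-3p, a midgut miRNA of mosquitoes, which shared its sequence with no other entry. It had 287 counts in drone ventriculus (187 CPM) and 0 in worker ventriculus, so the drone level was at least 116-fold higher when the worker column is set at its floor, 3 counts. Across the organs it was highest in queen ovary, at 235228 CPM, then drone testis, at 12115 CPM, and at most 2.91 CPM in the other 7 columns. miR-750-3p, also in the gut list, stood at 1073 CPM in queen ovary and 250.0 CPM in drone testis.

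miR-277-3p, which restrains the breakdown of branched-chain amino acids in flies, was the most abundant call on the drone side. It had 12263 counts in drone (8005 CPM) and 4444 counts in worker (2385 CPM), a 3.36-fold higher level and a log2 ratio of 1.75 (interval 1.70 to 1.80). The entries of its cluster pointed the other way: miR-34-5p was at 5046 CPM in drone and 8916 CPM in worker (log2 ratio -0.82), and miR-317-3p at 812 and 1170 CPM (-0.53), neither of them called. Summed over the 3 entries the level was 13862 CPM in drone and 12471 CPM in worker.

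miR-2796-3p, known from honey bee brain, had 439 counts in drone (287 CPM) and 130 counts in worker (69.8 CPM), a log2 ratio of 2.02 (interval 1.75 to 2.33). miR-3720-5p, for which no role is given here, had 474 and 185 counts (309.4 and 99.3 CPM), a log2 ratio of 1.63 (interval 1.39 to 1.89). miR-315-5p, an activator of Wingless signalling in flies, had 354 and 148 counts (231 and 79.4 CPM), a log2 ratio of 1.53 (interval 1.26 to 1.83). The worker column held the lower level in each of these 3, and for miR-2796-3p it was the lowest of all 11 columns.

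In the metabolic list the entries went both ways. Of its 5 entries 1 was called, miR-277-3p, next to 15.2% called over all 99 entries. The median log2 ratio was 0.86, against -0.19 over all 99 entries, but that of the summed level was 0.19. miR-14-3p and miR-33-5p, a regulator of lipid metabolism, stood at log2 ratios of 0.95 and 0.86, the latter with 121 counts in drone and 80 in worker. miR-8-3p, which acts in the fly fat body on insulin signalling, was at -0.38, and miR-375-3p, an insulin miRNA of vertebrates, at -0.72, with 10663 CPM in drone and 17566 CPM in worker. The mir-9 family had 1 of 3 entries called, higher in worker (10.1% over all 99 entries), and a median of -1.04. The call, miR-9a-5p, was lost under all 4 other scalings. The family also held miR-9c-5p at -1.62 (22 and 86 counts, under 50 CPM) and miR-79-5p at -0.90. Summed, the family had 8385 CPM in drone and 17054 CPM in worker ventriculus.

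Over all 99 entries 15.2% were called, which the counts in the other lists are to be read against. The gut stem cell list had 1 of 7 entries called on each side, miR-277-3p and miR-263a-3p, with a median of 0.04. None was called of 3 entries of the let-7 complex (median 0.16), of 6 in the ecdysone list (0.05), of 4 in the immune list (-0.45), of 8 in the growth and apoptosis list (-0.14), of 3 in the Hox list (0.50) or of 6 in the mir-71/mir-2 cluster (-0.23). The same held for 3 entries of the mir-12/mir-283/mir-3477 cluster (-0.43), 2 of the mir-275/mir-305 cluster (0.14) and 3 of the mir-92 family (0.03). The mir-34/mir-277/mir-317 cluster had 1 of 3 called (median -0.53). No entry on the sheet carried a name of the list of plant miRNAs.

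**Figure D3:**
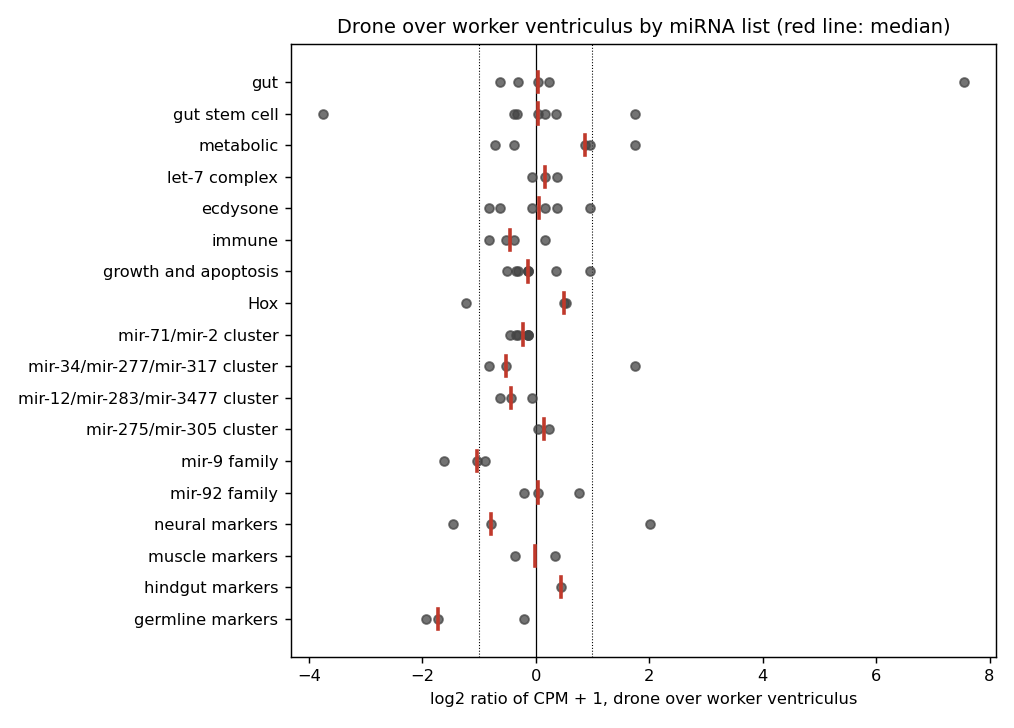
Log2 ratio of CPM + 1, drone over worker ventriculus (x axis), of each entry in 18 lists (y axis); 1 point per entry, the red line marks the median of a list and the dotted lines 2-fold, and an entry may be in several lists. The medians of the metabolic list (0.86), of the mir-9 family (-1.04) and of the germline markers (-1.72) lie farthest from 0.

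Markers of other tissues were read in the same columns. Since whole organs were pooled, fewer cells of a type and less RNA per cell cannot be told apart. Of the germline markers 4 entries were on the sheet, 2 of the 3 with enough counts were called, both higher in worker (10.1% over all 99 entries), and their summed level was 1323 CPM in drone and 4750 CPM in worker ventriculus, against 203051 CPM in worker ovary. The third was miR-3791-3p, at 113 and 130 CPM, and miR-318-3p had 3 and 6 counts. Of the neural markers 6 were on the sheet, and their sum was 294 CPM in drone and 85.3 CPM in worker, nearly all of it miR-2796-3p, against 33690 and 53443 CPM in drone and worker brain. miR-124-5p and miR-1000-5p, of which miR-124 is the defining miRNA of neurons, were at 0 in both ventriculus columns, and miR-929-3p had 2 and 3 counts. The other neural entries were lower in drone, miR-137-3p at 4.57 against 8.59 CPM and miR-932-5p at 1.31 against 5.37 CPM, and the median log2 ratio of the 3 with enough counts was -0.78. The muscle markers miR-1-3p and miR-133-3p summed to 66222 CPM in drone and 52677 CPM in worker and were not called, and neither was miR-31a-5p, taken as a rectum marker from earlier results of these data, at 5154 and 3762 CPM against 220213 and 156364 CPM in drone and worker rectum. The part of these tissues in the differences was not tested.

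Outside the ventriculus, a gonad (testis, worker ovary or queen ovary) held the highest level for 7 of the 10 entries higher in worker ventriculus, for 2 of the 5 higher in drone, and for 55 of all 99 (55.6%). Drone testis was that column for miR-2765-5p, miR-2788-5p and miR-263a-3p (32117, 486 and 5905 CPM), and worker ovary for miR-279b-3p, miR-989-3p and miR-2944-3p. Among the 7 was also miR-6000b-3p, with queen ovary at 150 CPM. miR-6000-3p, of the same sequence, was highest in drone mucus gland, at 684 CPM, so this one rests on how the counts were split between the names.

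By seed, the 99 entries came down to 94 sequences with 79 seeds, of which 8 were shared by 2 or more sequences. The seed AUCACAG was held by 5 sequences, those of miR-2a, miR-13a-3p, miR-13b-3p, miR-11-3p and miR-2944-3p, and summed to 4731 CPM in drone and 5555 CPM in worker, a log2 ratio of -0.23. In it miR-2944-3p alone was called, and the other sequences ran from -0.51 to -0.14. The seed CUUUGGU of miR-9a-5p and miR-9c-5p summed to 7579 and 15553 CPM, a log2 ratio of -1.04. The 3 sequences of the miR-92 seed AUUGCAC summed to 2098 and 1958 CPM (0.10).

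Brain and rectum, the other organs taken from both kinds of bee, gave the same contrast with no column in common with the ventriculus. By the same rule 31 of 116 entries were called in brain (26.7%), 10 higher in drone (8.62%) and 21 higher in worker (18.1%), and 15 of 80 in rectum (18.8%), 3 higher in drone (3.75%) and 12 higher in worker. Of the 15 entries called in ventriculus, 13 had 10 or more counts in a brain column, and 5 of these had the same sign there. In rectum the numbers were 12 and 6. Called the same way were 2 in brain and 2 in rectum, and called the opposite way 4 in brain and 2 in rectum. The share of same signs over all entries was not taken, so these counts are not read as agreement between organs. The same sign in all 3 organs was seen for miR-989-3p, miR-7-5p, miR-2944-3p and miR-9a-5p, all lower in drone. For miR-9a-5p this rests on the scaling, since brain was level, at 1000.4 CPM in drone and 1018 CPM in worker (log2 ratio -0.03), and the ratio there was 0.13 with DESeq2 size factors and 0.16 with column totals. miR-989-3p had log2 ratios of -2.77 in brain (341 against 2334 CPM) and -1.52 in rectum (380 against 1089 CPM), and miR-7-5p of -1.62 (3870 against 11912 CPM) and -0.70 (443 against 718 CPM).

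For miR-2765-5p and miR-2788-5p the order of drone and worker was the opposite in brain, while in rectum it rests on few counts. miR-2765-5p had 105 CPM in drone and 38.9 CPM in worker brain. In rectum it had 15 counts in drone (34.6 CPM) and 5 in worker (21.6 CPM), where the floor stood for 6.92 and 12.97 CPM. Its log2 ratio there was 0.65, and 0.27 with column totals. miR-2788-5p had 77.3 and 30.3 CPM in brain, and 3 counts in drone against 0 in worker rectum, which is at the floor. Of the 5 calls on the drone side, miR-1175-3p was at 0 in both brain columns and the other 4 were lower in drone brain: miR-277-3p had 2215 CPM in drone and 4876 CPM in worker brain, miR-2796-3p 32819 and 52573 CPM, miR-315-5p 547 and 999 CPM, and miR-3720-5p 14.8 and 268 CPM. In rectum miR-277-3p was level, at 7893 and 7561 CPM, and miR-3720-5p and miR-315-5p were lower in drone, at log2 ratios of -1.74 and -2.62.

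**Figure D4:**
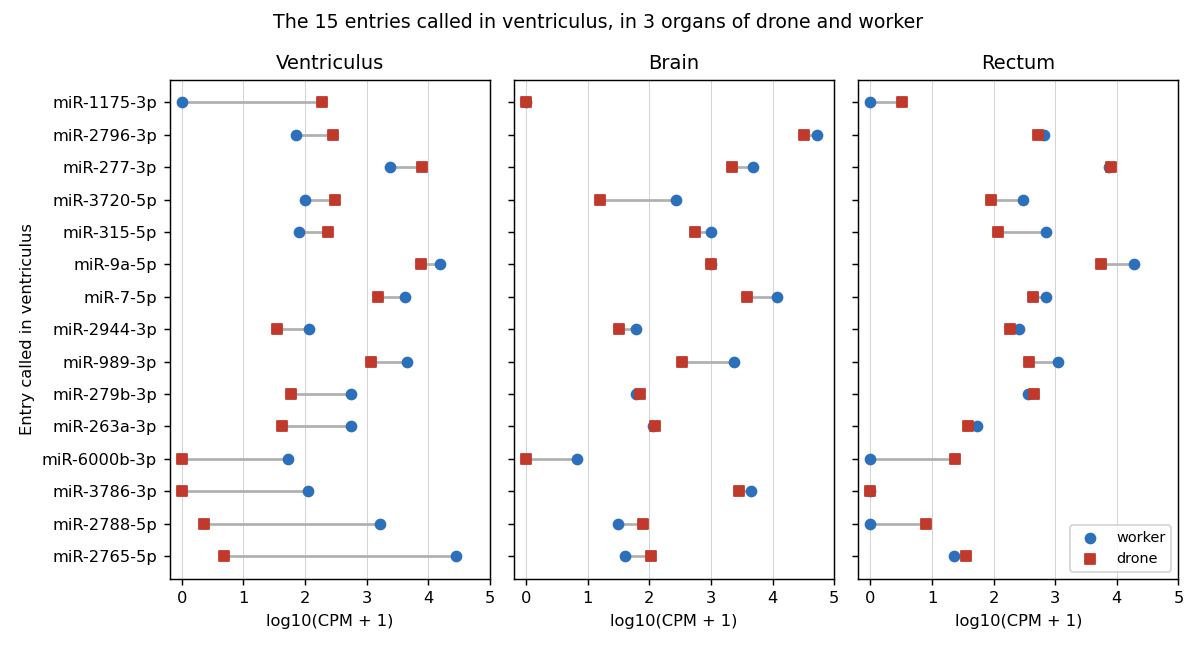
Levels as log10(CPM + 1) (x axis) of the 15 entries called in ventriculus (y axis) in drone (red squares) and worker (blue circles) ventriculus, brain and rectum, 1 pooled value each. miR-2765-5p and miR-2788-5p are farthest apart in the ventriculus panel, while miR-989-3p and miR-7-5p are lower in drone in all 3 organs.

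Whether drone and worker differed over the 3 organs was tested with edgeR's quasi-likelihood test on these 6 columns with a term for organ, so that the spread is that between organs. It called 0 of 108 entries after Benjamini-Hochberg adjustment (0.0%), and 5 entries had an unadjusted p under 0.05. DESeq2 called 3 entries: miR-989-3p, miR-6057-5p and miR-31a-5p. miR-989-3p was picked for its gap in the same ventriculus columns and for its same sign in brain and rectum. That it was lower in drone in 3 of 3 organs was therefore fixed by the choice. For miR-989-3p edgeR gave a log2 difference of -2.05 (adjusted p 0.702) and DESeq2 gave -1.89 (adjusted p 0.0053). Over the alternatives its adjusted p ran up to 1.0. These fits reuse the ventriculus columns, so they are no independent support. With those columns left out, edgeR gave -1.86 for it (adjusted p 0.1003). Without the ventriculus columns edgeR called 7 entries, 1 higher and 6 lower in drone, and miR-3720-5p was among those lower in drone. For miR-7-5p, picked in the same way and also lower in drone in 3 of 3 organs, edgeR gave -1.24 (adjusted p 0.702). Without the ventriculus columns it gave -0.87 (adjusted p 0.388).

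Whether the difference in ventriculus departed from that in brain and rectum was tested in the same columns with an interaction term, which leaves 1 residual degree of freedom. edgeR called 0 of 115 entries (0.0%), and 11 had an unadjusted p under 0.05. DESeq2 called 5 entries: miR-2765-5p, miR-2788-5p, miR-2796-3p, miR-279b-3p and miR-3759-3p. For miR-2765-5p edgeR's log2 difference of differences was -13.71 with an adjusted p of 0.163, and over the alternatives its adjusted p ran from 8.21e-36 with DESeq2 to 0.112 with identical sequences counted as 1. For miR-2788-5p it was -11.77 with an adjusted p of 0.346, from 8.23e-09 with DESeq2 to 0.312 with identical sequences counted as 1. For both entries the adjusted p fell on either side of 0.05 depending on the tool and the scaling, and the spread in this test is that between brain and rectum. Both were picked for their gap in the same ventriculus columns that the test uses, so it is no independent support for that gap.

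Across the 99 entries, levels in drone and worker ventriculus correlated with a Pearson r of 0.87 and a Spearman rho of 0.88 on the scale of log2(CPM + 1). Drone ventriculus had an r of 0.89 with worker rectum and 0.88 with drone rectum, and the lowest with drone testis, at 0.60. Worker ventriculus had an r of 0.85 with worker venom gland, 0.83 with drone rectum and 0.82 with worker rectum. These are descriptions across entries, which are not independent replicates, within columns that differ in depth.

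The least abundant entries carry little. Under 50 CPM in both columns were 23 entries, of which 9 were 2-fold apart, 4 higher in drone and 5 higher in worker. At the edge of the count limit, miR-6041 (10 counts in drone, 1 in worker) and miR-932-5p (2 and 10) were just inside, and miR-282-5p (1 and 9) and miR-3783-3p (9 and 5) just outside.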

How the data were processed

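Small RNA libraries of dissected, flash frozen organs were sequenced; per the labels' protocols, Trizol RNA went into a small RNA kit. The authors deposited read counts per miRNA entry, with the 2 libraries of an organ group pooled into 1 column; no source used here says whether as sum or mean. Of tools, bcl2fastq and kallisto appear in the submitters' processing notes, with no version; settings and a genome build are not given in the sources used here. A table of read totals per library was not used, since its library names match no sample label, so sequencing depth is given only as miRNA counts. Sequences come from the organ sheet; of the 99 entries, 93 names were in the authors' list of 200 conserved miRNAs, 62 with the identical sequence, and of the 15 called entries 14 names and 9 sequences matched.

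TMM factors came from all 11 organ columns (74 entries passing filterByExpr, minimum count 10). Log2 ratios used CPM plus 1. Tests used edgeR 4.0.16 and DESeq2 1.42.0 in R 4.3.3, two-sided, adjusted p at most 0.05, and intervals used scipy 1.17.1. Only edgeR with TMM was tried on simulated counts, DESeq2 was not. The simulated spread was lower than that of the fits, whose common dispersion was 0.471 and 0.299, so real power is not given by it. Even so the interaction test called only 41% of 8-fold and 60.5% of 32-fold changes. The p-values of the tests measure the spread between organ columns. Named were the called entries, the 10 of highest mean share, list members, entries called in a test by either tool and the pair of arms. Members and lists were chosen with earlier results of these data known. Scaling, pseudocount, count and CPM limits, merging of identical sequences, tools and organs left out were varied.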

Additional observations from a re-analysis of the deposited data

How the results depend on the processing

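The count of 15 entries called between drone and worker ventriculus ran from 11 to 19 over 11 alternatives. All 15 directions held wherever the entry was measured. The 2-fold limit of a call all but fixed this beforehand, since other scalings moved the median log2 ratio by only 0.08 to 0.18. It is therefore no support for the directions. The number higher in drone became 8, with 10 higher in worker, when the most abundant entry of each column was left out of its total, and the split was 7 and 8 with DESeq2 size factors. Other scalings moved the median log2 ratio up by 0.08 to 0.18, so signs of ratios just under 0 depend on it; miR-9a-5p lost its call under each of 4 scalings, miR-6000b-3p lost it under 3 of them, at 41.0 to 49.8 CPM, and miR-14-3p gained a call under all 4, with log2 ratios of 1.04 to 1.15. The test over 3 organs called 0 entries with edgeR, 3 with DESeq2 and 7 without the ventriculus columns, with 1 residual degree of freedom left. The test of ventriculus against brain and rectum called 0 with edgeR and TMM, 4 with DESeq2 size factors in edgeR, 5 with library totals and 5 with DESeq2; the cause was not tested. No paired analysis was possible because the count columns pool the libraries of a group and carry no replicate numbers; for the same reason no replicate could be left out. At 6 and 2 drone counts, the size of the gaps at miR-2765-5p and miR-2788-5p is poorly fixed and depends on the amount added. With 10 CPM added in place of 1 the log2 ratios were -10.97 and -7.20. The counting intervals have nothing added, so these ratios are not to be read against them.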
